A study of Nematostella vectensis with 27 samples.

Results

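Peaks of accessible chromatin at long non-coding RNA (lncRNA) genes lying apart from coding genes were examined in the sea anemone Nematostella vectensis. A gene was taken when its RefSeq biotype was lncRNA, its span overlapped no protein-coding span, and it lay over 1 kb from any such span. Of 3258 lncRNA genes in the gene table of assembly jaNemVect1.1, 932 (28.6%) met this rule, and they are called isolated lncRNA genes. Peaks centred inside such a span or within 500 bp of either end were counted, which gave 1748 of the 112728 peaks of the series (1.55%). Of these, 1005 (57.5%) were centred within 500 bp of a gene end and 743 in an interior, which is the part of a span over 500 bp from both ends.

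The series holds 27 single-cell libraries in 9 groups. The single-cell ATAC libraries came from pooled whole wild-type adults (16 fixed and 1 fresh), from pooled wild-type gastrulae at 26 hours after fertilization (1 fixed and 1 fresh), and from neurons sorted from NvElav1::mOrange transgenic polyps, in which the elav1 promoter drives a fluorescent protein (2 fixed and 3 fresh). A fresh adult multiome preparation gave 1 ATAC and 1 RNA library, and 1 adult library was 5′ single-cell RNA. One peak list for the whole series was analysed, without a height, a library or a cell type for any peak, so a peak from 1 cell type and one from every cell type look alike in it, read depth is unknown, and no comparison between libraries or groups could be made.

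In ATAC-seq the Tn5 transposase cuts DNA that is not wrapped in nucleosomes, and active promoters and enhancers are the usual sites of such open chromatin. LncRNA genes are transcribed mostly by RNA polymerase II, like coding genes, and are spliced and polyadenylated in many cases, but have no long reading frame. A few are known to act on neighbouring genes or on chromatin, many have no known role, and in animal genomes part of them start at enhancers. Automated annotation builds them from RNA-seq alignments, so the annotated ends can be incomplete. All 1062 transcripts of the 932 genes carry the prefix of RefSeq computed models, and the table gives no product names, so no role can be named for any of them.

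The isolated lncRNA genes were short and simple. Their spans ran from 262 bp to 35950 bp, with a median of 1983 bp and quartiles of 1181 and 3503 bp. The median of the isolated protein-coding genes, 4277 genes with no other gene within 1 kb, was 5304 bp. A single transcript was annotated for 853 lncRNA genes, and 79 had more, up to 8. The median distance to the nearest coding span was 3.58 kb and the farthest gene lay 507 kb away. Another annotated gene overlapped 123 of the 932, in 115 cases another lncRNA gene, and joining overlapping lncRNA spans left 884 loci.

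Most isolated lncRNA genes had a peak, and the number per gene was uneven. At least 1 member peak lay at 630 genes (67.6%), and 302 (32.4%) had none. A peak at both ends was found at 196 genes, at 1 end at 371, and in the interior alone at 63. In spans under 1 kb the windows of both ends overlap and 1 peak can count at each, and 45 of the 196 genes were of that class. Across genes, 207 had 1 peak, 155 had 2, 113 had 5 or more and 15 had 10 or more. The 93 genes with the most peaks held 37.8% of all assignments of peaks to genes. In total 567 genes (60.8%) had an end peak. Over all 19206 protein-coding genes on the chromosomes the share was 86.2%.

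Pooled over all spans, peaks were denser at lncRNA ends than in lncRNA interiors. Ends held 0.572 peak centres per kb over 1.76 Mb, and interiors held 0.405 per kb over 1.83 Mb, a ratio of 1.41. In spans of 1 to 2 kb the densities were close, at 0.532 per kb at ends and 0.519 in interiors. They were 0.628 and 0.469 from 2 to 5 kb, and 0.651 and 0.355 from 5 kb up. Spans under 1 kb have no interior, and the classes were not tested one by one. By chromosome, the lowest, median and highest densities were 0.400, 0.579 and 0.831 per kb at ends and 0.243, 0.392 and 0.656 per kb in interiors. The chromosomes thus overlapped widely between the classes, but within a chromosome ends were denser on 13 of 15, with chromosomes 9 and 10 going the other way at ratios of 0.811 and 0.904. The mean log2 ratio was 0.48 ± 0.42 (SD, n = 15 chromosomes), with an adjusted p of 0.00133 (exact permutation test that flips the sign of each chromosome's value, two-sided). Adjusted p-values here and below are Benjamini-Hochberg values, over 8 planned tests unless another family is named. Chromosomes are not biological replicates, so these p-values measure the spread along the genome within 1 list.

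**Figure D1:**
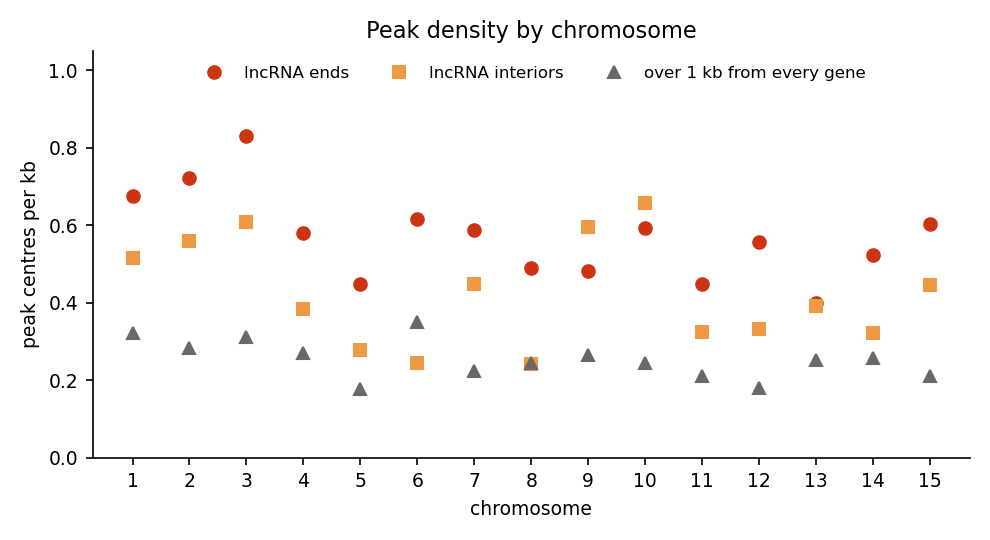
Peak centres per kb (y axis) on each of the 15 chromosomes (x axis) at isolated lncRNA ends (circles), in their interiors (squares) and in sequence over 1 kb from every annotated gene (triangles). Ends lie above interiors on 13 chromosomes and above the gene-free sequence on 15, from 0.400 per kb on chromosome 13 to 0.831 on chromosome 3.

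Sliding all peaks around each chromosome, which keeps their spacing, gave a second measure. Under 1000 circular shifts a mean of 739 peaks (range 597 to 863) fell at lncRNA ends, against 1005 observed, a ratio of 1.36. None of the 1000 shifts reached the observed count, giving an adjusted p of 0.00133 from an unadjusted 0.001, the smallest that these shifts can give. The count was above the shifted mean on 14 chromosomes, and the remaining one had a ratio of 0.967. Interiors held 743 peaks against 769 (588 to 933), a ratio of 0.967 with a permutation p of 0.63, and 7 of 15 chromosomes were above their own mean. The number of genes with an end peak was 567 against 432 (375 to 489), a ratio of 1.31, and was above the shifted mean on 15 of 15 chromosomes (adjusted permutation p = 0.00133). Whole-chromosome shifts carry peaks over coding genes too, and the ratios moved with the sequence allowed. With shifts kept inside sequence over 1 kb from coding spans, the ratio was 2.10 at ends and 1.49 in interiors, with unadjusted permutation p-values of 0.001 and 0.002. For the lncRNA genes over 5 kb from coding spans, whole-chromosome shifts gave ratios of 0.959 at ends (p = 0.664) and 0.660 in interiors (p = 0.005).

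The pileup was narrow and sat on the annotated end. Around both ends of the 463 lncRNA genes with spans of at least 2 kb, the 100-bp bin on the end held 11.6 peak centres per 100 ends, with an SD of 5.70 over chromosomes. Its neighbours held 6.48 on the outer side and 6.91 on the inner side. Shifted peaks gave 4.20 in the central bin, with a range of 2.70 to 6.80 over 100 shifts. At isolated coding genes of the same minimum span, the central bin held 23.3 per 100 ends. Farther out, the lncRNA profile stayed between 3.89 and 6.59 in each bin up to 2 kb outside, mostly above the shifted mean. The 500 bp limit cut through this plateau. Without the limit to spans of at least 2 kb, 83 peaks were centred in the last 100 bp inside it and 71 in the next 100 bp beyond it.

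**Figure D2:**
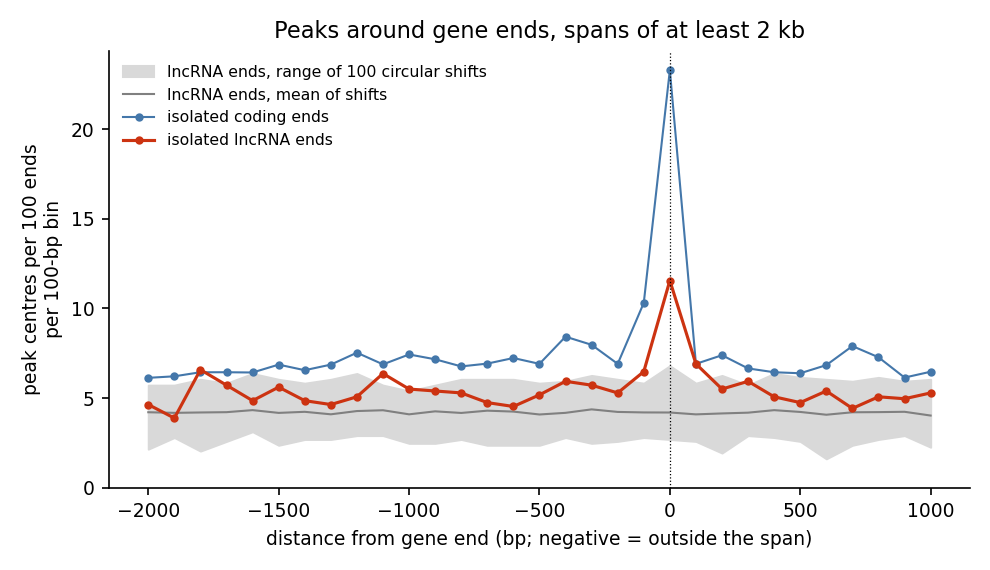
Peak centres per 100 gene ends in 100-bp bins (y axis) by distance from the end in bp (x axis, negative outside the span), for isolated lncRNA genes (red) and isolated coding genes (blue) with spans of at least 2 kb. The grey band is the range and the grey line the mean of 100 circular shifts at the lncRNA ends. The lncRNA line reaches 11.6 at the end, above the band's top of 6.80, and the coding line reaches 23.3.

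Counted by end, 367 of the 1864 lncRNA ends (19.7%) lay inside a peak interval. Shifts put 193 ends in a peak on average (148 to 244), a ratio of 1.90. At isolated coding genes the share was 33.9%, and it was higher than the lncRNA share on 15 of 15 chromosomes (difference -14.3 points, p adjusted over 13 added comparisons = 0.000159, exact sign-flip permutation test). The table gives no strand, so a start and a stop of transcription could not be told apart. Where both ends can be scored separately, in the 463 spans of at least 2 kb, 139 had a peak at neither end, 226 at 1 end and 98 at both. The shifted means were 235, 175 and 52.3. Both-end genes were above the shifted range of 26 to 77.

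Lone coding genes had more peaks at their ends than lone lncRNA genes. A peak centre lay within 500 bp of 763 of 1864 lncRNA ends (40.9%) and of 4817 of 8554 isolated coding ends (56.3%). By chromosome the lncRNA share ran from 28.9% through a median of 41.3% to 55.1%, and the coding share from 46.5% through 56.1% to 62.0%. The groups overlapped across chromosomes, yet the coding share was higher on each of the 15. The pooled difference was -15.4 points and the mean over chromosomes was -15.0 ± 6.82 points (SD, n = 15, adjusted exact sign-flip permutation p = 0.000244). Peak density at ends was 0.656 times that at isolated coding ends, which held 0.872 per kb (p adjusted over 13 added comparisons = 0.000159). Interiors pooled over all spans were close, at 0.405 against 0.412 per kb, and no difference was detected. The ratio was 0.984, lower on 10 of 15 chromosomes (p adjusted over 13 added comparisons = 0.764, exact sign-flip permutation test). Within span classes lncRNA interiors were lower, at 0.519 against 0.611 per kb from 1 to 2 kb and 0.469 against 0.528 from 2 to 5 kb. From 5 kb up the values were 0.355 against 0.397, and these class densities were not tested. The log2 ratio of end to interior was 0.48 at lncRNA genes and 1.07 at coding genes, without weighting to span length. Its difference was -0.59 ± 0.46 (SD, n = 15, p adjusted over 13 added comparisons = 0.000567, exact sign-flip permutation test).

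Gene length went with this gap. With coding genes weighted to the span lengths of the lncRNA genes, the coding share fell to 48.5% and the difference to -7.54 points (lower on 12 of 15 chromosomes, p adjusted over 13 added comparisons = 0.00198). Spans under 1 kb had a peak at 33.2% of ends for lncRNA and 28.6% for coding genes. From 1 to 2 kb the shares were 38.3% and 48.4%, from 2 to 5 kb 45.4% and 53.7%, and from 5 kb up 46.0% and 62.5%. The mean differences over chromosomes were 11.4, -11.3, -8.29 and -16.1 points, with exact sign-flip permutation p-values adjusted over the 4 classes of 0.0164, 0.00537, 0.0142 and 0.0138. The share of ends was thus higher for lncRNA than for coding genes in the shortest class and lower in the longer ones. In the shortest class 1 peak can count at both ends, lncRNA spans had a median of 715 bp against 854.5 bp for coding spans, and by gene 41.3% of 179 lncRNA and 40.0% of 220 coding genes had an end peak. Chromosome 13 held 41 of the 179 lncRNA spans under 1 kb, and without it the shares in that class were 38.4% and 28.3%.

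**Figure D3:**
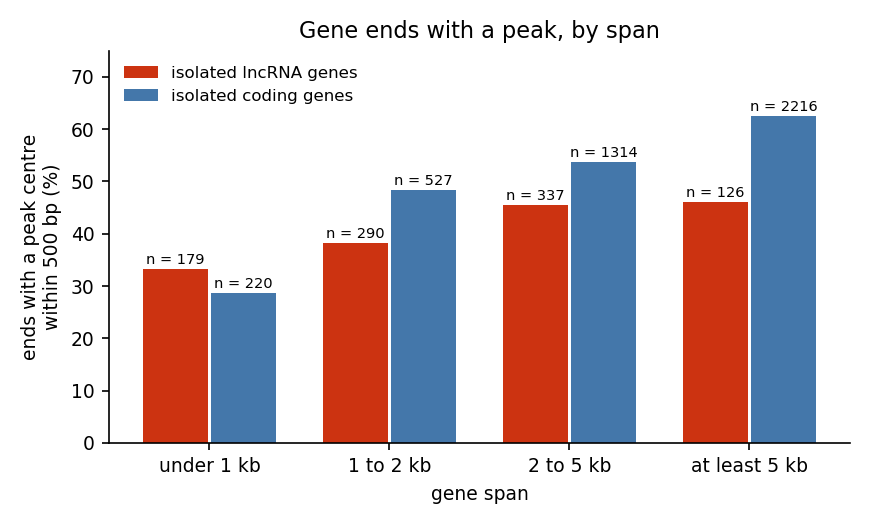
Percent of gene ends with a peak centre within 500 bp (y axis) by span class (x axis) for isolated lncRNA genes (red) and isolated coding genes (blue), pooled over chromosomes, with the number of genes above each bar. The lncRNA bars run from 33.2% to 46.0% and the coding bars from 28.6% to 62.5%.

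Set against sequence over 1 kb from every annotated gene, both ends and interiors of lncRNA genes were rich in peaks. That sequence held 12711 peaks in 51.1 Mb, or 0.249 per kb, and from 0.177 to 0.351 per kb by chromosome with a median of 0.252. Ends were 2.30 times as dense, on 15 of 15 chromosomes, with a mean log2 ratio of 1.17 ± 0.27 (SD, adjusted exact sign-flip permutation p = 0.000244). Interiors were 1.63 times as dense, on 13 of 15, with 0.69 ± 0.49 (SD, adjusted exact sign-flip permutation p = 0.0013). The exceptions were chromosome 6, at 0.244 per kb in interiors against 0.351, and chromosome 8, at 0.243 against 0.244. For the lncRNA genes over 5 kb from coding spans the interior ratio was 1.11, above 1 on 9 of 15 chromosomes, and did not pass (unadjusted exact sign-flip permutation p = 0.965). There the gene-free sequence was not limited to that distance. Taken by distance of the base, interiors were 1.82 times as dense as gene-free sequence at 5 to 10 kb. The ratio was 1.86 at 10 to 20 kb and 3.94 over 20 kb, and these interior ratios were not tested by class. The sequence 1 to 5 kb from an isolated lncRNA gene was itself denser, at 0.372 per kb. Ends exceeded it 1.54 times on 15 of 15 chromosomes (p adjusted over 13 added comparisons = 0.000159). Interiors did not pass against it, with a ratio of 1.09, higher on 10 of 15 (p adjusted over 13 added comparisons = 0.383, exact sign-flip permutation test).

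Distance from coding genes changed the level but not the order of these classes. At bases 1 to 2 kb from a coding span, ends held 0.766 peaks per kb, interiors 0.741 and gene-free sequence 0.532. At 5 to 10 kb the values were 0.569, 0.490 and 0.270 per kb. Over 20 kb from coding spans they were 0.292, 0.144 and 0.0367, so that ends stood at 7.96 times the gene-free level, from 47 end peaks in 161 kb. Gene-free sequence at that distance held 689 peaks in 18793 kb, and whether reads can be placed uniquely in it was not tested. Ends were above gene-free sequence on 13 to 15 of 15 chromosomes in each of the 5 classes, with exact sign-flip permutation p-values adjusted over the classes of 0.000153 to 0.000366. With gene-free sequence weighted to the same distances, the ratio was 1.81 for ends and 1.66 for interiors, both on 15 of 15 chromosomes. For both, p adjusted over 13 added comparisons was 0.000159 (exact sign-flip permutation test). By gene, the share with an end peak was 69.6% of 224 genes at 1 to 2 kb, 65.3% of 354 at 2 to 5 kb, 55.8% of 172 at 5 to 10 kb and 46.2% of 182 beyond. Among the lncRNA genes that the rule leaves out, the share was 68.7% of 1763 overlapping a coding span, close to the 1 to 2 kb class, and 73.0% of 555 within 1 kb of one. Of the genes that met the 1 kb limit by at most 100 bp, 20 of 32 had an end peak, and of those that missed it by at most 100 bp, 19 of 29.

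**Figure D4:**
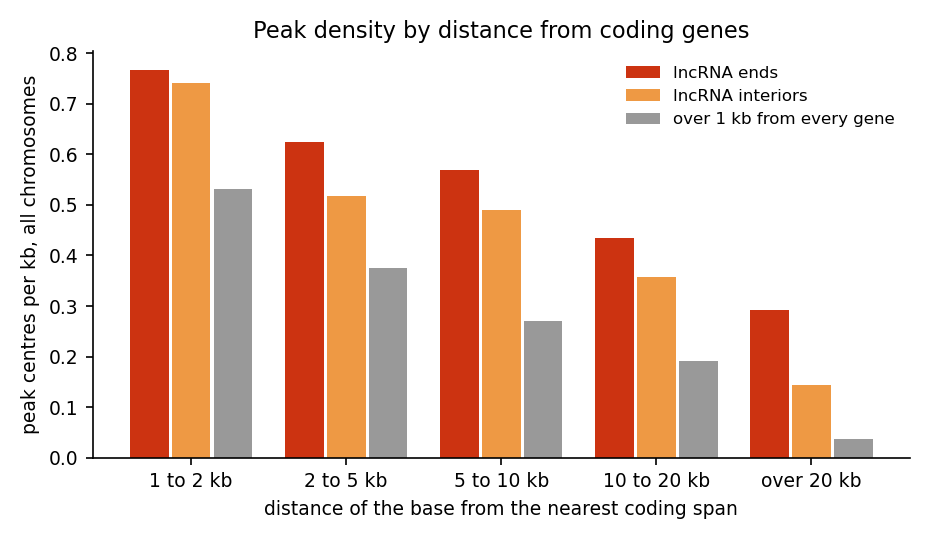
Peak centres per kb (y axis), pooled over chromosomes, by distance of the base from the nearest protein-coding span (x axis) for isolated lncRNA ends, their interiors and sequence over 1 kb from every annotated gene. Density falls with distance in each, and over 20 kb it is 0.292 at ends, 0.144 in interiors and 0.0367 in gene-free sequence.

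Peak length, which the choice of members did not use, separated ends from interiors. The list holds 81632 peaks of 250 bp, 31095 that are 1 bp shorter and 1 other, and the 31095 are called the shorter peaks. What sets the 1-bp difference is not given in the sources used here. Shorter peaks made up 293 of 1005 at lncRNA ends (29.2%), 277 of 743 in interiors (37.3%), 34.8% in gene-free sequence and 27.5% of the whole list. The difference of ends from interiors was -8.13 points, lower on 12 of 15 chromosomes, with a mean of -8.58 ± 9.51 points (SD, adjusted exact sign-flip permutation p = 0.00593). Isolated coding ends held fewer, 1379 of 7424 (18.6%), which was below the lncRNA ends on 12 of 15 chromosomes (p adjusted over 13 added comparisons = 0.00397). Neither lncRNA ends nor interiors differed detectably from gene-free sequence (p adjusted over 13 added comparisons = 0.133 and 0.291).

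The gap between lncRNA and coding ends lay in the 250-bp peaks, in shares that were not weighted to span length. A 250-bp peak was near 29.0% of lncRNA ends and 47.7% of coding ends, a difference of -18.7 points. A shorter peak was near 14.9% and 15.0%, a difference of -0.0613 points (exact sign-flip permutation p = 0.965). The change between the differences was 18.6 points, in that direction on 14 of 15 chromosomes (p adjusted over 13 added comparisons = 0.000264). Likewise the end-to-interior ratio was 1.59 for 250-bp peaks alone and 1.10 for shorter peaks alone (p = 0.000122 and 0.685, exact sign-flip permutation tests). At the 10 genes with the most peaks, 15 of 136 member peaks were of the shorter kind, 5 of them at LOC116612842. Among all members the share was 29.2% at ends and 37.3% in interiors. These genes were picked for their peak counts, and the difference from all members was not tested.

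Member peaks were spaced like other peaks. The median distance to the nearest other peak centre was 488 bp for end peaks, 531 bp for interior peaks, 554 bp in gene-free sequence and 496 bp over all peaks. Another peak lay within 1 kb of 74.7% of end peaks and 75.4% of interior peaks, against 77.4% of all peaks. These neighbour distances were not tested.

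Most of the genes with the most peaks had more in the interior than at their ends. End windows have a fixed size, so in long spans most of the territory is interior. End and interior densities were not compared gene by gene. LOC125561088 (chromosome 2, 7895861 to 7913844, 1.10 kb from a coding span) had 26 peaks in 18.0 kb, 23 of them in the interior. LOC116618836 (chromosome 15, 344277 to 354558) had 14, of which 11 were interior. LOC116620111 (chromosome 1, 13563612 to 13577283) had 14, of which 12 were interior and 2 at its right end. Beside it, LOC5515904 (chromosome 1, 13556335 to 13562566) had 13 in a shorter span of 6.23 kb, with 3 at the left end and 2 at the right. The 2 genes form a neighbouring pair rich in peaks. LOC5515908 (chromosome 1, 13502576 to 13504652) lies apart from them, with a coding gene in between. LOC5515908 was the densest among spans of at least 2 kb, at 2.60 member peaks per kb, 8 in all.

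The pattern of ends differed among the rest of these genes. LOC116604592 (chromosome 10, 7256540 to 7267141) had 13 peaks, none at an end. LOC5507491 (chromosome 1, 10349929 to 10358992) had 13, with 2 at the left end and 3 at the right. LOC116617893 (chromosome 9, 2564749 to 2571175) and LOC5504818 (chromosome 4, 14636137 to 14647151) had 11 each, with 3 and 2 at the left end and none at the right. Thus peaks stood at 1 end alone in 3 of the 10 genes, and which end that is in transcription is not known. LOC116612842 (chromosome 1, 13868978 to 13882077) had 11, with 1 at each end, and 9 in the interior. LOC116604438 (chromosome 13, 740902 to 744043) had 10 in 3.14 kb, with 5 at ends and 5 inside, or 2.41 per kb. The other dense genes were LOC5516044 on chromosome 7 with 10 peaks at 2.16 per kb, LOC125570088 on chromosome 1 with 7 at 2.16 and LOC116614183 on chromosome 3 with 7 at 2.11. For all named genes, peaks were placed by the gene's own span. Other lncRNA genes overlap LOC125561088, LOC116620111 and LOC5507491. Those that overlap LOC116620111 and LOC5507491 are isolated lncRNA genes too, so a peak interior to these 2 can count as an end peak in the totals. The one that overlaps LOC125561088 is not among the isolated lncRNA genes, so its ends do not enter the totals.

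**Figure D5:**
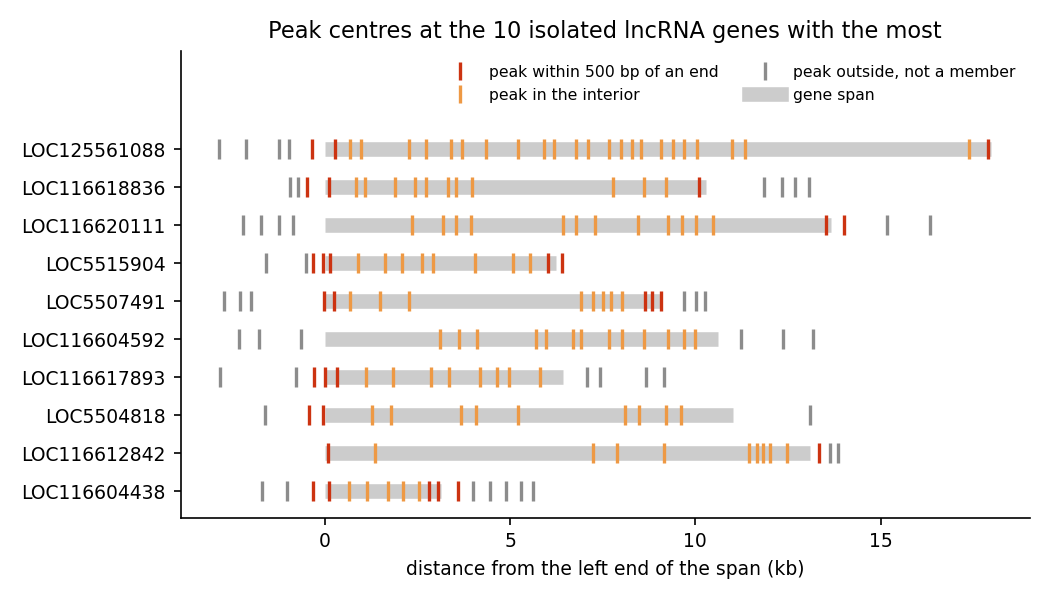
Peak centres (ticks) along the 10 isolated lncRNA genes with the most member peaks, by distance in kb from the left end of each span (x axis), with 3 kb on either side. Red ticks lie within 500 bp of an end of that gene, orange in its interior and grey outside both. LOC125561088 carries 26 members and LOC116604592 none at its ends.

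Genes far from coding genes could also carry peaks. LOC116620148 (chromosome 13, 15192195 to 15194254) lay 507 kb from the nearest coding span and had 1 peak, at its left end. The next 4 lay together on chromosome 6, 236 to 292 kb from coding spans. LOC125568064 (17610031 to 17612871) had 3 peaks there, LOC125568066 and LOC125568061 had 1 each, and LOC125568067 (17666450 to 17686968) had 2 in 20.5 kb. Long spans could in turn be empty. LOC116606033 (chromosome 8, 2746478 to 2772618) had no peak in 26.1 kb, with the nearest centre 12.6 kb away, and its neighbour LOC125570248 (chromosome 8, 2775983 to 2796375) had none in 20.4 kb. The others were LOC125559160 on chromosome 13 (11.3 kb), LOC125563053 on chromosome 5 (8.85 kb) and LOC125568005 on chromosome 6 (8.73 kb). Of these, LOC116606033, LOC125570248 and LOC125568005 lay inside the peak-free stretches of at least 50 kb described below.

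The 302 genes without a member peak were short, with a median span of 1316 bp against 2403 bp for the genes with one. Their median distance to the nearest peak centre was 2.62 kb, 77 lay over 10 kb from one, and the farthest 99.6 kb. Part of them came in clusters. Stretches of at least 50 kb without any peak that held 3 or more isolated lncRNA genes numbered 7 and held 66 of the 302 (21.9%). The cluster with the most genes was on chromosome 13 (5750726 to 5950460), where 199.7 kb held 26 isolated lncRNA genes, with a median span of 642 bp, and 12 coding genes. The next was on chromosome 6 (16055638 to 16190445), where 134.8 kb held 21 of them and no coding gene.

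Genes in these empty stretches often matched each other in length. In the stretch on chromosome 13, 17 of 26 had a span within 5 bp of another one there, and in that on chromosome 6, 10 of 21. In a stretch of 147 kb on chromosome 9 (9690451 to 9837570) it was 6 of 6, and in one of 56.0 kb on chromosome 4 (14375168 to 14431163) 4 of 4, among 162 tRNA genes. Together 37 of the 66 genes (56.1%) had such a match within their stretch. Among all 932 isolated lncRNA genes, these 66 included, 54 (5.79%) had another of that length within 200 kb. That search range differs from a stretch, and the share outside the stretches was not counted. These stretches were looked for after the values had been seen, so the shares are a description. Whether reads can be placed uniquely there was not tested, since no genome sequence was used here. Without chromosome 13, which had the lowest share of lncRNA ends with a peak, the share was 42.2%, and the difference from coding ends was -13.8 points.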

How the data were processed

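Libraries were processed by the submitters with bcl2fastq, Cell Ranger ARC 2.0.1 and Cell Ranger 7.0.0, per the submitters' processing notes. The peak caller, its threshold, how libraries were pooled and the build are not given in the sources used here. The authors deposited 1 list of 6 columns, whose start and end positions in bp are the only values. Setting the 15 sequences that share a name prefix, in name order, against chromosomes 1 to 15 of the RefSeq table put a peak near 60.2% of coding gene ends, against 28.2% to 30.8% in 14 moved orders. A peak counted by its centre. The gene table has neither strand nor sequence, so a planned comparison of start with stop ends was not made and no sequence is shown.

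Densities and shares were compared by exact sign-flip permutation over 15 chromosomes (32768 patterns, smallest p 6.1e-05) and by 1000 circular shifts within chromosomes. Scripts were tested on simulated peaks. The members and lists were chosen with earlier results of these data known. Named genes were the 10 with the most member peaks, the 5 longest without one, the 5 farthest from coding genes with an end peak, and the 5 densest of at least 2 kb. Alternatives were end windows, isolation distance, span, overlap, peak length, shift range and each chromosome left out. Computation used Python 3.11.15, numpy 2.4.6 and pandas 2.3.3.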

Additional observations from a re-analysis of the deposited data

How the results depend on the processing

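The list allows limits over chromosomes, not over libraries or animals, and depth is unknown. Ratios of ends to interiors and to gene-free sequence passed under each alternative except one. With the shorter peaks alone (1 bp under 250 bp), the ratio of ends to interiors was 1.10 (p = 0.685), the difference from coding ends was -0.0613 points (p = 0.965), and interiors rose above shifts at 1.31 (p = 0.001). For lncRNA genes over 5 kb from coding spans, ends against shifts turned to 0.959 (p = 0.664) and genes with an end peak fell to a ratio of 1.10 (p = 0.19). Their interiors were 0.660 against shifts (p = 0.005). Set against all gene-free sequence, not limited to that distance, their interiors were 1.11 (p = 0.965). The difference in shorter peaks for these genes was -7.71 points (p = 0.182). Interiors against shifts also turned with a 250 bp window (1.02), with shifts of 5 to 50 kb (1.10) and with shifts within sequence over 1 kb from coding spans (1.49, p = 0.002). Interiors against sequence 1 to 5 kb from the genes gave 1.09 (p = 0.353), an alternative added after the data were seen. These p-values are unadjusted, by permutation, and the cause was not tested.

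Leaving out each chromosome in turn moved ends against interiors from 1.34 to 1.46, end peaks against shifts from 1.33 to 1.40, genes with an end peak from 1.29 to 1.34, the difference from coding ends from -16.0 to -13.8 points, ends against gene-free sequence from 2.25 to 2.37, interiors against it from 1.57 to 1.74, and the difference in shorter peaks from -9.90 to -6.93 points. Interiors against shifts ran from 0.939 to 1.02, and turned without chromosome 6 (1.02) and without chromosome 8 (1.003). No analysis paired by sample was possible because the list carries no sample columns.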
